A study of Schizosaccharomyces pombe with 4 samples.

Results

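The genes that decide whether a fission yeast cell enters meiosis were followed through a heat shift in cells with and without working Mmi1. The set was chosen by name and holds 7 genes, ste11, mei2, mei3, pat1, rep1, rst2 and esc1, out of 4880 genes named on the array. Each of the 7 had 1 spot with a value on every array, so all 7 are among the 4771 genes tested and none was lost to a filter.

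In Schizosaccharomyces pombe, growing cells keep the meiotic programme shut. When nutrients run out, protein kinase A (PKA) and TOR signalling fall, and Ste11, an HMG-box transcription factor, switches on mating genes and mei2. The kinase Pat1 holds Ste11 and the RNA-binding protein Mei2 inactive until Mei3, made in diploids heterozygous for mating type, inhibits Pat1. Active Mei2 then ties up Mmi1, a protein that binds meiotic transcripts and sends them for destruction, so Mei2 acts upstream of Mmi1 in meiosis.

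Both strains were grown from a colony in YES, a rich medium, at 25 °C. Part of each culture was collected during logarithmic growth at 25 °C, and part 30 min after a move to 36 °C. JV558 is the wild type, and JV565 carries mmi1-ts3, a temperature-sensitive allele for which 36 °C is restrictive. Further markers, mating type and ploidy of the strains are not given in the sources used here. PolyA RNA of the shifted cells (channel 1) was hybridised with that of the same strain at 25 °C (channel 2), on 2 arrays per strain. Each value is therefore a response to the shift within a strain. The 25 °C levels of the strains never met on an array, so a transcript already altered in mmi1-ts3 at 25 °C would not show. In these bulk cultures, fewer cells that express a gene and less RNA per cell cannot be told apart.

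Values are read as log2 ratios, positive where the transcript was higher at 36 °C, and each array is centred on its median. The direction was read from heat shock genes: 13 of 14 were above 0 on all 4 arrays, and sks2 was below 0. Between 5121 and 5184 of 5188 spots had a value. In each strain the title of replicate 2 carries a code and that of replicate 1 does not; they are called coded and uncoded arrays here. The correlation over 4771 genes was 0.77 between the wild-type arrays and 0.87 between the mmi1-ts3 arrays, against 0.91 between the uncoded arrays and 0.87 between the coded ones. The arrays of 1 set were thus as close as, or closer than, the arrays of 1 strain, and values within each set are given beside the strain differences. Nothing states that replicates came from separate cultures, so p-values may measure technical spread alone. All adjusted p-values are from limma with Benjamini-Hochberg adjustment over the 4771 genes, at a threshold of 0.05. Where 1 array is left out, the array left in that strain is taken to vary like those of the other strain. A call lost or made in such a fit is therefore only a guide.

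The shift raised ste11 about 2-fold in both strains, and ste11 was the only 1 of the 7 to pass the test. The mean ratio of mei2 was below 0 in the wild type and above 0 in mmi1-ts3, but neither response was called. Its difference between the strains was the largest among the 7, at 0.25 on the uncoded and 1.65 on the coded arrays. The next difference was that of rep1, an activator of the premeiotic S-phase factor, which rested on the uncoded arrays. Neither of these differences passed the test. The transcripts of pat1 and mei3, the brake and its inhibitor, changed in neither strain by the test.

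**Figure D1:**
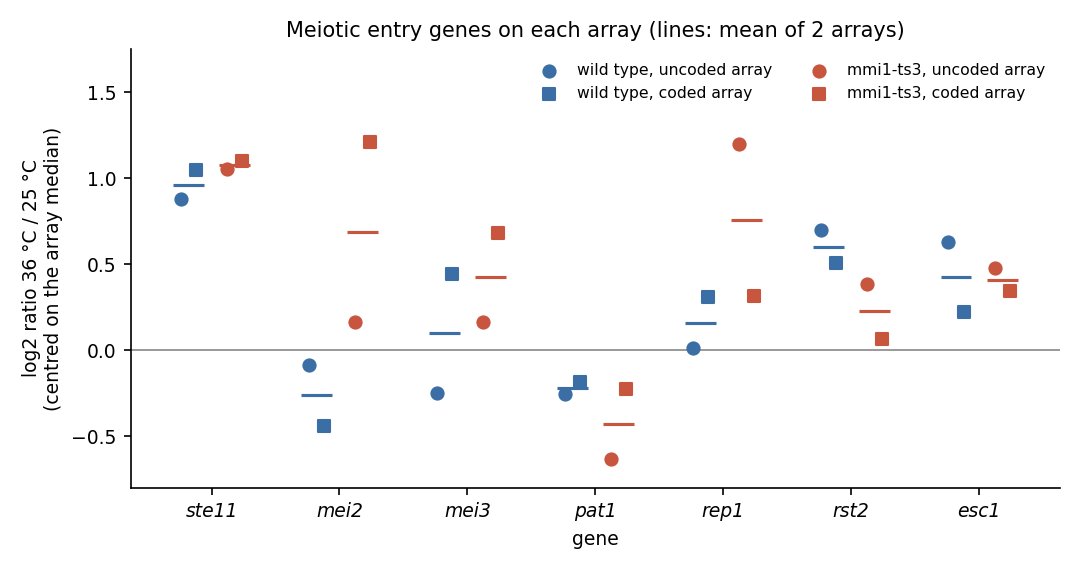
Centred log2 ratio of 36 °C over 25 °C (y axis) of each of the 7 genes (x axis) on the 4 arrays; blue is the wild type, red mmi1-ts3, circles are uncoded and squares coded arrays, and lines are means of 2 arrays. The 4 values of ste11 lie together between 0.88 and 1.10, while those of mei2 run from −0.44 to 1.21.

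In the wild type, 1 of the 7 genes was called higher at 36 °C and 0 lower, where 13.5% and 14.5% of all genes tested were called in these directions. The same count, 1 higher and 0 lower, was found in mmi1-ts3, against 14.9% and 19.6% of all genes. The median response of the 7 was 0.16 for the wild type and 0.42 for mmi1-ts3, beside 0.03 and 0.005 over all genes. Above 0 on all 4 arrays were 4 of the 7 (ste11, rep1, rst2 and esc1), and below 0 on all 4 was 1 (pat1); 29.9% and 31.6% of all genes had these patterns.

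Ste11 is the transcription factor at the centre of the switch, and its transcript is where nutrient and stress signals meet. The wild-type arrays gave ste11 log2 ratios of 0.878 and 1.048, and the mmi1-ts3 arrays 1.055 and 1.098. The 4 values lie close together, and the strains meet almost without a gap. The wild-type mean was 0.96 ± 0.12 (SD, n = 2), a 1.95-fold rise (limma, adjusted p = 0.0119). That of mmi1-ts3 was 1.08 ± 0.03 (SD, n = 2), a 2.11-fold rise (limma, adjusted p = 0.00653). Without wild-type replicate 2 the wild-type value was 0.88 and its call was lost. With either mmi1-ts3 array left out the mmi1-ts3 value was 1.055 or 1.098. A response at least as high was seen for 9.7% of all genes in the wild type, and for 8.32% in mmi1-ts3. A call higher in both strains, as for ste11, was made for 10.7% of all genes. The difference between the strains was 0.11 ± 0.23 (SE), with a 95% interval from −0.47 to 0.70. A change of ste11 by mmi1-ts3 of up to 0.70 in log2 is thus inside the interval.

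Rst2 is a zinc-finger factor that activates ste11 and is itself held back by PKA. For rst2 the log2 ratios were 0.70 and 0.505 in the wild type, and 0.385 and 0.068 in mmi1-ts3. All 4 were above 0, with both wild-type arrays above both mmi1-ts3 arrays. The wild-type mean, 0.60 ± 0.14 (SD, n = 2), just missed the threshold (limma, adjusted p = 0.0566), and that of mmi1-ts3 was 0.23 ± 0.22 (limma, adjusted p = 0.368). The wild-type value was called when the arrays were left uncentred (0.59, limma, adjusted p = 0.0495) or centred on nearby spots, a setting described with mei2 (0.65, adjusted p = 0.0318). It was also called with the array set as a block (0.60, limma, adjusted p = 0.0288) and among genes of close replicates (adjusted p = 0.0187). The choice of genes with close replicates selects on the spread that the test itself uses, so that call adds no support. With any of the 4 arrays left out, the wild-type value of rst2 was not called, at 0.505 to 0.70. The difference of rst2 was −0.38 ± 0.25 (SE; 95% interval −1.01 to 0.26), with −0.32 on the uncoded and −0.44 on the coded arrays. Its size was similar in both sets, yet it did not pass (limma, adjusted p = 0.998). The annotated rst2 locus overlaps fsv1. The fsv1 means, 0.95 in the wild type (limma, adjusted p = 0.0335) and 0.82 in mmi1-ts3 (adjusted p = 0.0439), were called. The strand a spot reports was not given, and a part of fsv1 in the rst2 values was not tested. Such overlaps are not special to rst2. The annotated loci of all the members overlap long non-coding RNA genes that were not tested, and rep1 also overlaps mmp1, not tested either.

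Esc1, a basic helix-loop-helix factor, has been tied to the promotion of sexual differentiation. Its log2 ratios were 0.63 and 0.22 in the wild type, and 0.48 and 0.34 in mmi1-ts3. The mmi1-ts3 arrays lay between the wild-type arrays, so the strains overlapped. The means were 0.43 ± 0.29 (SD, n = 2) and 0.41 ± 0.10, neither called (limma, adjusted p = 0.145 and 0.141). The difference was −0.01 ± 0.26 (SE; 95% interval −0.67 to 0.64). The 20 spots beside esc1 in the table had a median of −0.86 on wild-type replicate 2, against −0.22 to −0.47 on the other arrays. Relative to those nearby spots esc1 was higher in both strains, at 0.96 (limma, adjusted p = 0.00536) and 0.81 (adjusted p = 0.00973). The call of esc1 therefore depends on the centring. The annotated esc1 locus overlaps pso2 and SPOM_SPAC56F8.15, which were called in neither strain. A part of these genes in the esc1 values was not tested.

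Mei2 is the RNA-binding protein whose activity sets off premeiotic DNA synthesis and the first meiotic division, and its gene is a target of Ste11. In the wild type mei2 had log2 ratios of −0.086 and −0.438, whereas mmi1-ts3 gave 0.166 and 1.212. Both wild-type arrays lay below 0 and both mmi1-ts3 arrays above it, a pattern that 0.922% of all genes had. The reverse pattern is not in this share, although it would have been singled out as well. The mmi1-ts3 arrays stood 1.05 apart, a gap that 4.76% of all genes reached. The means were −0.26 ± 0.25 (SD, n = 2) in the wild type (limma, adjusted p = 0.532) and 0.69 ± 0.74 in mmi1-ts3 (limma, adjusted p = 0.115). Without mmi1-ts3 replicate 1, the mmi1-ts3 value was 1.21. The spread in that fit comes from the wild-type arrays alone, so no call is drawn from it.

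The mei2 response of mmi1-ts3 was 1.93-fold that of the wild type, a log2 difference of 0.95 ± 0.40 (SE; 95% interval −0.05 to 1.95). It ranked 36 from the highest of 4771 genes, and 0.755% of genes had a difference as high or higher, with negative differences not counted. It did not pass (limma, adjusted p = 0.998); the smallest adjusted p of any gene was 0.254. The difference was 0.25 on the uncoded and 1.65 on the coded arrays, and from 0.43 to 1.47 with 1 array left out. The 20 spots beside mei2 in the table had medians of 0.005 (uncoded) and −0.67 (coded) in the wild type, and −0.50 (uncoded) and 0.07 (coded) in mmi1-ts3. Centring each spot on the 20 around it, a setting chosen after the data were seen, gave mei2 differences of 0.79 on the uncoded and 0.91 on the coded arrays. The pooled difference of mei2 was then 0.85 and still did not pass (limma, adjusted p = 1). Under this setting, which called 16.9% (wild type) and 19% (mmi1-ts3) of all genes higher, the wild-type response of mei2 turned to 0.06, and that of mmi1-ts3, at 0.91, was called (limma, adjusted p = 0.00789).

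**Figure D2:**
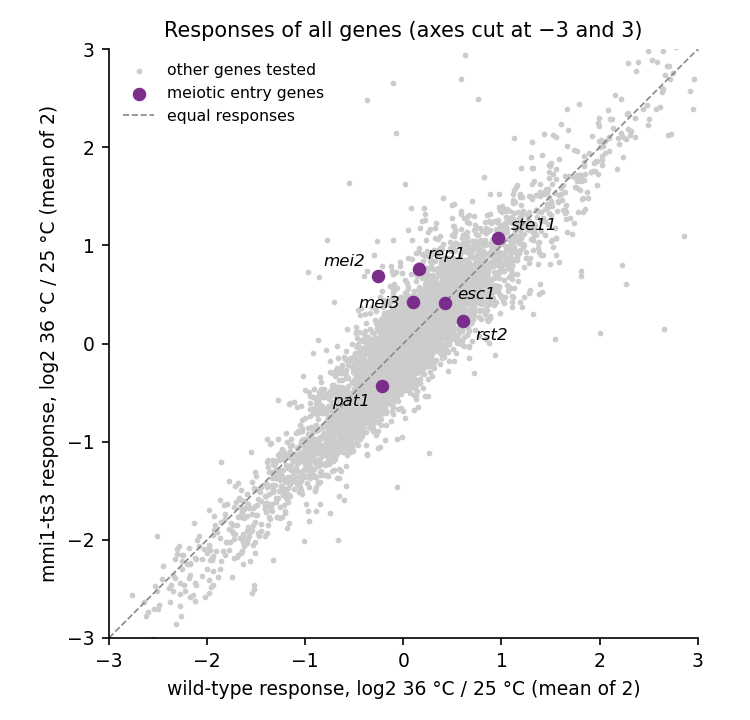
Mean log2 response of each gene in the wild type (x axis) and in mmi1-ts3 (y axis); grey points are the other genes tested, purple points the 7 meiotic entry genes, and the dashed line marks equal responses, with 68 genes outside the axes. The point of ste11 lies on the line near 1, and that of mei2, at −0.26 and 0.69, lies farthest above it among the 7.

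Mei3 inhibits Pat1 by binding it in place of its substrates, and is normally made only in diploid cells heterozygous for mating type. The wild type gave log2 ratios of −0.25 and 0.45 for mei3, and mmi1-ts3 gave 0.16 and 0.68. The coded array was the higher one in each strain, and the strains overlapped. The means were 0.10 ± 0.49 (SD, n = 2) and 0.42 ± 0.37, neither called (limma, adjusted p = 0.793 and 0.228). The difference was 0.33 ± 0.35 (SE; 95% interval −0.54 to 1.19), with 0.415 and 0.24 in the uncoded and coded sets.

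Pat1, also known as Ran1, phosphorylates Ste11 and Mei2 in growing cells and so bars entry. For pat1 the wild-type log2 ratios were −0.25 and −0.185, and those of mmi1-ts3 −0.63 and −0.225. It was the only 1 of the 7 below 0 on all 4 arrays, and the strains overlapped. The means were −0.22 ± 0.05 (SD, n = 2) and −0.43 ± 0.29 (limma, adjusted p = 0.419 and 0.125). The difference was −0.21 ± 0.26 (SE; 95% interval −0.85 to 0.44), with −0.38 and −0.04 in the sets.

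Rep1 is a zinc-finger protein that works with the MBF transcription complex in premeiotic DNA synthesis. Replicates 1 and 2 of the wild type gave rep1 log2 ratios of 0.013 and 0.309, and those of mmi1-ts3 gave 1.198 and 0.315. The uncoded mmi1-ts3 array stood apart, and the other 3 lay close together. The means were 0.16 ± 0.21 (SD, n = 2) in the wild type (limma, adjusted p = 0.673) and 0.76 ± 0.62 in mmi1-ts3 (limma, adjusted p = 0.0696). Without mmi1-ts3 replicate 2 the mmi1-ts3 value of rep1 was 1.20, in a fit whose spread comes from the wild-type arrays alone. With centring on nearby spots the mmi1-ts3 value was 1.022 and was called (limma, adjusted p = 0.0165). The difference of rep1 was 0.60 ± 0.36 (SE; 95% interval −0.30 to 1.49), the 129th of 4771 genes from the highest. It was 1.185 in the uncoded set and 0.006 in the coded set, so the coded arrays showed next to none of it.

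In all, 0 of the 7 genes differed between the strains by the test, as did 0% of all genes in either direction. At an unadjusted p under 0.05 limma gave 49 genes higher (1.03%) and 41 lower (0.859%), with 0 of the 7 among them. Both mmi1-ts3 arrays lay above both wild-type arrays for 3 of the 7 (ste11, mei2 and rep1), a pattern of 9.37% of all genes, and below them for 1 (rst2), as for 20.4% of all genes. For ste11 and rep1 the gap between the strains was 0.007 and 0.006, far under the spread between replicates; for mei2 it was 0.25. The median difference of the 7 was 0.11, and −0.07 over all genes.

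**Figure D3:**
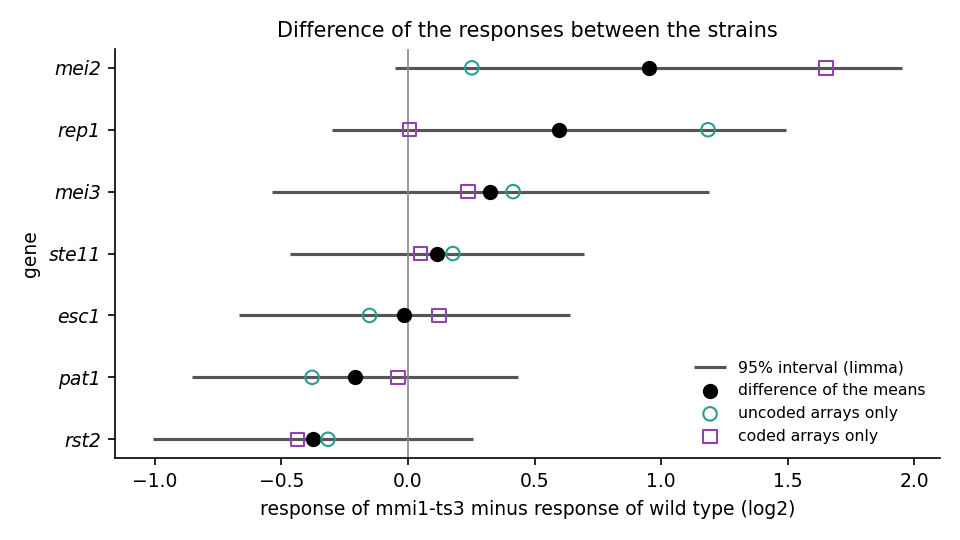
Response of mmi1-ts3 minus that of the wild type (x axis, log2) for each gene (y axis); black points are differences of the means with 95% limma intervals, open circles the uncoded and open squares the coded arrays alone. Every interval includes 0; mei2 owes most of its 0.95 to the coded set (1.65) and rep1 most of its 0.60 to the uncoded set (1.185).

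The genes nearest to each member were found by the Euclidean distance over the 4 centred ratios, a description over 4 arrays. Their likeness to the member on any of these arrays follows from that choice and is no further result. Nearest to mei2 were atf21 (distance 0.31), mug74 (0.37) and mfm1 (0.40), and only 7 genes lay within 0.5. On the coded mmi1-ts3 array these 3 genes stood at 1.30, 0.93 and 1.44. Nearest to rep1 were SPOM_SPAC17A2.07C (0.21), mcp6 (0.27) and wtf7 (0.31), with 16 genes within 0.5. On the uncoded mmi1-ts3 array they stood at 1.19, 1.18 and 0.95. The profile of ste11 was common, with 93 genes within 0.5 and SPOM_SPBC409.18 (0.10), gpi17 (0.19) and sro7 (0.19) nearest. Those of pat1 and esc1 were more common still, with 305 and 340 genes within 0.5.

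**Figure D4:**
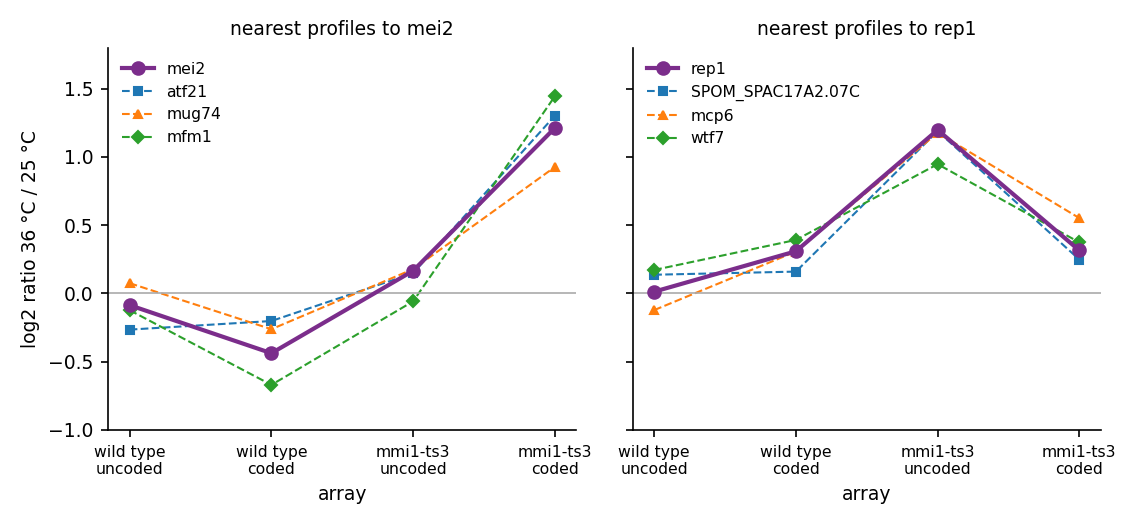
Centred log2 ratio of 36 °C over 25 °C (y axis) on the 4 arrays (x axis) for mei2 and its 3 nearest profiles (left) and rep1 and its 3 nearest (right); lines only join the values of a gene. The mei2 group peaks on the coded and the rep1 group on the uncoded mmi1-ts3 array, which follows from choosing neighbours by these same values.

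Upstream of ste11, the PKA pathway reads glucose and represses Rst2 and Ste11. Over all genes tested, 13.5% rose and 14.5% fell in the wild type, and 14.9% and 19.6% in mmi1-ts3. These shares stand beside the counts of this list and of each list below. Of 10 glucose and PKA genes, all measured, 4 rose and 0 fell in each strain. Their median responses were 0.46 (wild type) and 0.39 (mmi1-ts3). The catalytic subunit gene pka1 had log2 ratios of 1.501 and 2.07 in the wild type, then 2.48 and 2.40 in mmi1-ts3. It rose 3.45-fold in the wild type (limma, adjusted p = 0.00341) and 5.43-fold in mmi1-ts3 (adjusted p = 0.0013), and the mmi1-ts3 arrays lay above the wild-type arrays. The difference of pka1 was 0.65 ± 0.29 (SE), 0.98 and 0.33 in the uncoded and coded sets, and did not pass (limma, adjusted p = 0.998). The regulatory subunit gene cgs1, whose product holds Pka1 inactive, rose 3.41-fold and 3.28-fold (limma, adjusted p = 0.00426 and 0.00385). The G-protein beta subunit gene git5 rose 4.70-fold and 4.31-fold (limma, adjusted p = 0.00457 and 0.00439). Catalytic and regulatory subunit transcripts thus rose in the same samples as ste11. Differences of gpa2, the alpha subunit (0.34 ± 0.26 SE), and git7 (−0.24 ± 0.25) did not pass either.

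TOR kinase complexes also hold back differentiation in rich medium. Of 14 TOR genes, 2 rose and 0 fell in the wild type, and 2 rose and 1 fell in mmi1-ts3, with median responses of 0.17 and 0.16. The Rag GTPase gene gtr2 rose 2.61-fold in the wild type (limma, adjusted p = 0.00918) and 1.904-fold in mmi1-ts3 (adjusted p = 0.0247), and wat1, a subunit of both complexes, rose 1.81-fold and 1.53-fold (adjusted p = 0.0172 and 0.0388). Leaving out either wild-type array ended the wild-type call of wat1 (limma, adjusted p = 0.0884 and 0.0625), and leaving out replicate 1 that of gtr2 (adjusted p = 0.0506). Without mmi1-ts3 replicate 1, gtr2 (limma, adjusted p = 0.256) and wat1 (adjusted p = 0.287) were not called in mmi1-ts3, nor was wat1 without replicate 2 (adjusted p = 0.215). The kinase gene tor2 fell to 0.682-fold in mmi1-ts3 (limma, adjusted p = 0.0485), a call lost with any of the 4 arrays left out (adjusted p from 0.0572 to 0.349). The largest differences, gtr1 (−0.57 ± 0.28 SE), gtr2 (−0.45 ± 0.31) and tor2 (−0.35 ± 0.23), were all negative and did not pass. Of the 14 differences 5 were positive, and the median of the 14 was −0.14, beside −0.07 over all genes.

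The Sty1 MAP kinase and its factor Atf1 carry stress signals, and Atf1 with Pcr1 is known to act on ste11. Of 7 genes, 1 rose and 0 fell in the wild type, and 1 rose and 1 fell in mmi1-ts3. The transcript of atf1 rose 2.96-fold in the wild type (limma, adjusted p = 0.00489) and 2.54-fold in mmi1-ts3 (adjusted p = 0.00609). That of win1, a kinase upstream of Sty1, fell to 0.523-fold in mmi1-ts3 (limma, adjusted p = 0.0146), a call lost without mmi1-ts3 replicate 2 (adjusted p = 0.147). The 7 differences were all negative, from −0.40 to −0.04, with a median of −0.15, where the median over all genes was −0.07. The largest, beside win1 (−0.40 ± 0.26 SE), were sty1 (−0.25 ± 0.26) and atf1 (−0.22 ± 0.28), and 0 passed.

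Of 13 partners and regulators of Ste11 or Mei2, 2 rose and 4 fell in the wild type and 1 rose and 5 fell in mmi1-ts3. The gene sla1, for the La RNA-binding protein, fell to 0.226-fold and 0.169-fold (limma, adjusted p = 0.00177 and 0.001). The gene nrd1, whose RNA-binding product represses Ste11-dependent genes, fell to 0.403-fold and 0.367-fold (limma, adjusted p = 0.0192 and 0.0113). The nrd1 calls were lost without wild-type replicate 1 (limma, adjusted p = 0.0972) and mmi1-ts3 replicate 1 (adjusted p = 0.0664). The gene cpc2, for a ribosome-bound RACK1 protein, fell to 0.602-fold in the wild type (limma, adjusted p = 0.029) as well as to 0.406-fold in mmi1-ts3 (adjusted p = 0.00421). The wild-type call of cpc2 was lost without either wild-type array (limma, adjusted p = 0.136 and 0.0911) and with centring on nearby spots (adjusted p = 0.082). The gene sds23 rose 2.16-fold and 2.02-fold in the strains (limma, adjusted p = 0.0092 and 0.00944). Both sds23 calls were lost without replicate 1 of the strain (limma, adjusted p = 0.0539 and 0.0774). The differences of cpc2 (−0.57 ± 0.24 SE), sla1 (−0.42 ± 0.26) and rad24, a 14-3-3 protein gene (−0.38 ± 0.25), did not pass, and 7 of the 13 had both mmi1-ts3 arrays below both wild-type arrays, as did 20.4% of all genes.

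Downstream, 18 of 22 mating-type and pheromone genes that Ste11 is known to switch on were measured. By limma 0 rose and 0 fell in either strain. Of all genes, 13.5% rose and 14.5% fell in the wild type, and 14.9% and 19.6% in mmi1-ts3. At these shares a count of 0 among 18 does not show whether the list follows ste11, which rose. No share of all genes is given for the unadjusted counts that follow. Those counts thus do not show whether the list rose more often than other genes. At an unadjusted p under 0.05, 4 listed genes were higher and 0 lower in the wild type, and 3 and 0 in mmi1-ts3. Their median responses were 0.19 (wild type) and 0.40 (mmi1-ts3), and the median difference was 0.12. The M-factor pheromone gene mfm1 had log2 ratios of −0.12 and −0.67 in the wild type, then −0.058 and 1.44 in mmi1-ts3. The coded mmi1-ts3 array of mfm1 was high and the other 3 were below 0, as for mei2 the coded mmi1-ts3 array was the high one. The difference of mfm1, 1.09 ± 0.53 (SE), did not pass, and was 0.065 and 2.11 in the uncoded and coded sets. The pheromone genes mfm1, mfm2 and mfm3 are close copies, so which of them the spot reports is uncertain. The differences of byr2 (−0.35 ± 0.40 SE) and mat1-Mi (0.33 ± 0.27) did not pass.

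Of the partners and followers of Mei2, 9 of 10 were measured; the RNA gene sme2, the partner of Mei2, was not analysed here. By limma 0 rose and 0 fell in the wild type (0 higher and 0 lower at an unadjusted p under 0.05), and 4 rose and 0 fell in mmi1-ts3. The meiotic cohesin gene rec8, a known Mmi1 target, rose 4.43-fold in mmi1-ts3 (limma, adjusted p = 0.00196). The list was written with earlier results in view, and most of its followers are known Mmi1 targets. Also called there were num1 (2.60-fold, limma, adjusted p = 0.0358) and ssm4 (2.40-fold, adjusted p = 0.0497), both lost without mmi1-ts3 replicate 1 (adjusted p = 0.221 and 0.295). The ssm4 call was also lost with the array set as a block (limma, adjusted p = 0.0584) and under 5 other settings of centring, scaling, gene filter and variance (adjusted p from 0.0500016 to 0.0598). The fourth, named after its values were seen, was spo5, which rose 2.27-fold (limma, adjusted p = 0.00515), with 1.236 and 1.125 on the mmi1-ts3 arrays. Its difference of 1.01 ± 0.23 (SE), 1.15 and 0.87 in the uncoded and coded sets, did not pass (limma, adjusted p = 0.998). The 9 differences were all positive, from 0.04 to 2.22, with a median of 0.315. The 3 largest were rec8 (2.22 ± 0.30 SE), num1 (1.17 ± 0.52) and ssm4 (1.04 ± 0.53), and 0 passed (limma, rec8 adjusted p = 0.452). With only genes whose replicates differed by under 1 in each strain, the rec8 difference was called (2.22, limma, adjusted p = 0.0056). That filter picks genes by the replicate spread that the test itself uses, so this call adds no support. The difference of num1 was 2.235 and 0.11 in the uncoded and coded sets and that of ssm4 2.17 and −0.09, as that of rep1 lay in the uncoded set, while rec8 had 2.60 and 1.84. The transcript of mmi1 itself had ratios of −0.24 and 1.01 in the wild type and 0.24 and 0.66 in mmi1-ts3, which overlapped; its level says nothing of the function of the allele.

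Rep1 works through MBF, the complex of Cdc10 with Res1 or Res2 that drives S-phase genes. Of 13 measured MBF and S-phase genes, 0 rose and 3 fell in the wild type, and 1 rose and 5 fell in mmi1-ts3. The gene res2, for the Res subunit that serves meiosis, had log2 ratios of 0.37 and 1.28 in the wild type, then 1.995 and 1.41 in mmi1-ts3. Both mmi1-ts3 arrays were above the wild-type arrays, and res2 rose 3.25-fold in mmi1-ts3 (limma, adjusted p = 0.00819). In the wild type its 1.77-fold value was not called (limma, adjusted p = 0.0815), and the difference of 0.88 ± 0.40 (SE), 1.63 and 0.12 in the sets, did not pass. The gene cdc22, for ribonucleotide reductase, fell to 0.349-fold and 0.227-fold (limma, adjusted p = 0.00397 and 0.00135). The mitotic activator gene rep2 fell to 0.42-fold and 0.366-fold (limma, adjusted p = 0.00597 and 0.00329). The gene res1 fell to 0.394-fold and 0.494-fold (limma, adjusted p = 0.0102 and 0.0192). These res1 calls were lost without wild-type replicate 2 (limma, adjusted p = 0.067) and mmi1-ts3 replicate 1 (adjusted p = 0.172). Differences of cdc22 (−0.62 ± 0.26 SE) and cdt1 (−0.42 ± 0.23) did not pass.

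**Figure D5:**
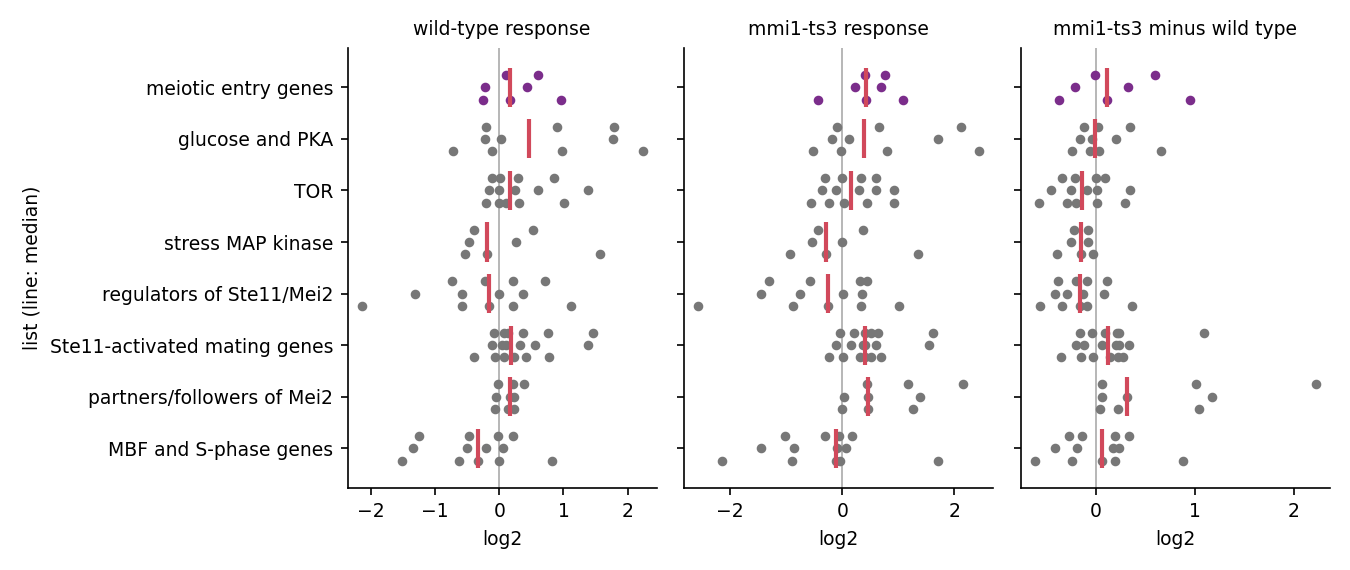
Wild-type response, mmi1-ts3 response and their difference (x axes, log2) of each gene of the 7 meiotic entry genes (purple) and of 7 lists of pathway genes (grey), with the median of each list as a red line; points are spread vertically only to be seen. The median difference lies within 0.32 of 0 for every list, and the points beyond 1 belong to mfm1 and to followers of Mei2.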

How the data were processed

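Each deposited value is the log2 ratio between both channels of an array, a reading that rests on the values; the log base, normalization, spot filters and ratio direction are not given in the sources used here. A base-10 log was set aside because the highest value, 7.81, exceeds the 4.82 of a 16-bit range; with natural logs every value would lie further from 0. Per the labels, 3 to 6 µg of polyA RNA went into each labelling; channel 1 is listed as Cy5, but its protocol mentions Cy3. No swap of dyes is recorded, and a dye effect would stay in each response.

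Of 5188 spots, 4933 had 1 gene; 4930 matched the RefSeq table of ASM294v3 by gene ID. Members were matched by symbol, since rep1 is also a synonym of mrs6. Spots of a gene were averaged, genes with all 4 values kept, and arrays centred. limma 3.58.1 in R 4.3.3 fitted a mean for each strain to all 4 arrays (residual df 2, prior df 3.56), checked on simulated data. The simulated arrays had independent noise, and the planted differences were larger than those of the members. That check does not show what would be found at the sizes of the members. An exact test of 2 arrays against 2 cannot go below p = 0.333. Members and lists were chosen with earlier results of these data known. Named are the 7 members and the 3 nearest profiles of mei2, rep1 and ste11. Per list, the 3 largest differences and up to 3 largest called responses per strain are named. Values of spo5, and the other strain's values of cpc2, sds23 and res1, were added after they were seen. The alternatives were 17 planned and 1 added. The number of arrays limits the precision.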

Additional observations from a re-analysis of the deposited data

Results flagged for a closer look

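Among the members and the list genes named by rule, mei2 was singled out. Both of its wild-type arrays were below 0 and both of its mmi1-ts3 arrays above 0. A gene with the reverse signs would also have been singled out. The strain difference was 0.95 and did not pass the test (limma, adjusted p = 0.998). Nearby spots of the table differed between the arrays too, and with centring on them the wild-type side no longer held, at 0.062. The part of these nearby values in the result was not tested further.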

How the results depend on the processing

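Under no alternative was the strain difference of any of the 7 genes called (limma, adjusted p from 0.772 to 1). Signs turned for esc1 (difference 0.051 without centring, 0.0025 with centring on the middle of the genes, and from −0.22 to 0.19 with 1 array left out, positive without wild-type replicate 1 or, at 0.0535, mmi1-ts3 replicate 2), mei3 (difference from −0.023, without wild-type replicate 1, to 0.67; wild-type response from −0.25, without wild-type replicate 2, to 0.45, and −0.20 with centring on nearby spots), mei2 (wild-type response 0.062 with centring on nearby spots), atf1 (difference from −0.50 to 0.057, the latter without wild-type replicate 2) and byr2 (difference from −0.89 to 0.185, the latter without mmi1-ts3 replicate 2). The cause was not tested. In the wild type 2 of the 7, rst2 beside ste11, were called without centring and with the replicate block on array set. Of the 4771 genes, 647 and 928 were called higher there, beside 643 in the fit used throughout. The same 2 members were called with genes of close replicates and at an adjusted p under 0.1. For these settings no share of all genes is given in either strain, so the counts show nothing particular to the members. With centring on nearby spots 3 were called in the wild type, and 0 at 0.01, where 262 of all genes were called higher. In mmi1-ts3, 2 were called with genes of close replicates (which leaves mei2 out) and at 0.1, with rep1 beside ste11, and 4 with centring on nearby spots, where 16.9% and 19% of all genes were called higher, wild type first. With 1 array left out the members called ran from 0 to 1 (wild type) and 1 to 2 (mmi1-ts3). Over all genes, 1336 (wild type) and 1644 (mmi1-ts3) were called, 546 and 799 at 0.01, and 649 to 1346 and 902 to 1793 with 1 array left out, where the lone array is taken to vary like the others; the wild type had 850 without replicate 1 and 649 without replicate 2, and mmi1-ts3 902 and 976. For the difference, 9 genes were called with close replicates, a filter on the spread that the test uses, and 3 with centring on nearby spots. The labels name no pairing. The replicate block called 1847 and 2169 genes in the responses and 0 for the difference, and the replicate deviations of the strains correlated at 0.38 over genes between arrays of 1 set.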

Other observations

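Among the mating genes that Ste11 is known to switch on, spk1, the MAP kinase of the pheromone pathway, and fus1, a formin for cell fusion, were chosen after their values were seen. The log2 ratios of fus1 were 2.19 and 0.585 in the wild type, then 2.63 and 0.62 in mmi1-ts3, and those of spk1 were 1.88 and 1.04, then 2.52 and 0.58. In each strain the uncoded array was the high one, while the strains overlapped. Neither gene was called (limma, adjusted p = 0.0541 for spk1 and 0.0775 for fus1 in mmi1-ts3). Their replicate SDs in mmi1-ts3 were 1.37 and 1.43, against 0.03 for ste11 and up to 0.74 (mei2) among the members. The mmi1-ts3 arrays were unusually close for ste11, as 91.2% of all genes had an mmi1-ts3 gap at least as large. For the wild-type gap of ste11 this share was 73.5%.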
